A study of Mus musculus with 8 samples.

Results

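The genes described here carry fatty acids into the heart muscle cell, store them as triglyceride and burn them in mitochondria. The list of 39 mouse genes was drawn up by function, as transporters and lipases, acyl-CoA synthetases, the carnitine shuttle, the enzymes of mitochondrial beta oxidation, thioesterases and an uncoupling protein, and the proteins of lipid droplets. This list and the others used here were chosen with earlier results of these data known. Their shares and medians are therefore not independent of the data. Of the 39 genes, 36 were measured among the 19933 genes of the array. Acsl3 and Cpt1b lie only in probe sets that carry several gene symbols and Acsl1 was not analysed here, so no value is given for them. RNA of the left ventricle came from 8 mice, 1 Affymetrix gene array per heart. There were 2 PlGF mice, which express placental growth factor in the heart, and 3 control mice. A further 3 mice were labelled PlGF/RGS4. That label names RGS4, a protein that shortens G protein signalling, as expressed together with PlGF. All 8 mice were C57/Bl6 animals aged 11 weeks. The transgenes are of the TET-OFF kind, driven by tTA from the αMHC promoter of cardiomyocytes. Doxycycline in the diet kept them silent up to the age of 5 weeks, and normal chow then let them run for 6 weeks. The controls were littermates that carry 1 transgene, and the labels do not say which.

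The adult heart takes most of its energy from long-chain fatty acids. Lipoprotein lipase frees them from circulating particles at the capillary wall, CD36 and fatty acid transport proteins bring them across the membrane, and acyl-CoA synthetases couple them to coenzyme A. The acyl groups then either enter triglyceride droplets or pass into mitochondria on carnitine, a step that malonyl-CoA inhibits, and are shortened by rounds of beta oxidation that feed electrons to the respiratory chain. Many genes of this route are known targets of PPARα and of ERR receptors, which bind variants of a hexamer half-site in DNA.

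Some features of the arrays bear on all values. Pgf, the gene of the PlGF transgene, read 4136 and 917 intensity units in the PlGF arrays, 300.0, 229 and 211 in the arrays labelled PlGF/RGS4 and 211, 349 and 387 in the control arrays. The arrays labelled PlGF/RGS4 thus lay within or below the control range for the transgene that their label names, and Rgs4 overlapped too, at 234, 187 and 229 against 209.5, 277 and 281.5 in control, so their label is given here as a label only. PlGF replicate 1 stood apart, with a mean correlation across genes of 0.974 with the arrays of the other groups, where the other 7 arrays had 0.991 to 0.993. Xist, an RNA of the inactive X chromosome, was at 26.9 to 50.8 units in PlGF replicate 1, PlGF/RGS4 replicate 2 and control replicate 2, which were read as male, and at 2581 to 2958.5 units in the other 5 arrays. With 2 PlGF hearts, the 2 values are given in place of a mean and SD, replicate 1 before replicate 2, and a two-sided exact permutation test over the arrays of any 2 groups cannot give a p under 0.1. Every fold change is on the log2 scale with its SE, and every adjusted p is from limma. In pieces of whole ventricle, fewer cells of a type and less RNA per cell cannot be told apart.

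The 5 stretches of DNA printed here lie upstream of the genes and are shown because they belong to members whose PlGF arrays lay below every control array, and because they differ in whether they hold the half-site. They are 250 bases before the RefSeq start of each gene on the assembly GRCm38.p6, 5′ to 3′ on the strand of the gene, and capitals in the first 4 mark AGGTCA or its reverse complement TGACCT. These are the promoters of Acadm, the medium-chain acyl-CoA dehydrogenase (chr3:153944644-153944893, minus strand), of Gpam, which starts glycerolipid synthesis (chr19:55099478-55099727, minus strand), of Plin5, a droplet coat protein (chr17:56117549-56117798, minus strand), and of the uncoupling protein Ucp3 (chr7:100472741-100472990, plus strand), which holds 2 matches.
Acadm: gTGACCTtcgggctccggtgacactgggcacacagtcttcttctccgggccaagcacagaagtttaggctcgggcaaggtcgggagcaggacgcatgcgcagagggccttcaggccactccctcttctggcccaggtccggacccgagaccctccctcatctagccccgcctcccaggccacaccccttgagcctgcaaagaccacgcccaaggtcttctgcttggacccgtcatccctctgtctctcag
Gpam: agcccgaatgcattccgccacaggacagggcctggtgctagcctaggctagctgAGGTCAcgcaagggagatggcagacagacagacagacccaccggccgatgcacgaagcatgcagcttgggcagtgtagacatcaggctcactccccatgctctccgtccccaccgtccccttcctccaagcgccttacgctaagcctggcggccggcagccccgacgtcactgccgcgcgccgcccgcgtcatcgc
Plin5: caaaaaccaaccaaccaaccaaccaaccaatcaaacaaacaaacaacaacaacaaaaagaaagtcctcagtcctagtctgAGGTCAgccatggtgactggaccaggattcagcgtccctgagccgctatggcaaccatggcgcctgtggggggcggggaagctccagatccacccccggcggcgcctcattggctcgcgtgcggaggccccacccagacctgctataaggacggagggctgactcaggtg
Ucp3: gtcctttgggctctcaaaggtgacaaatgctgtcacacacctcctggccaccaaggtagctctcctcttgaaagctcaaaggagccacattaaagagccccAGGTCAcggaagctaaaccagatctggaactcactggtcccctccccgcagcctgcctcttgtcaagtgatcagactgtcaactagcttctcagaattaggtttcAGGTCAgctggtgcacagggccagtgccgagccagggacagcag
Hadhb: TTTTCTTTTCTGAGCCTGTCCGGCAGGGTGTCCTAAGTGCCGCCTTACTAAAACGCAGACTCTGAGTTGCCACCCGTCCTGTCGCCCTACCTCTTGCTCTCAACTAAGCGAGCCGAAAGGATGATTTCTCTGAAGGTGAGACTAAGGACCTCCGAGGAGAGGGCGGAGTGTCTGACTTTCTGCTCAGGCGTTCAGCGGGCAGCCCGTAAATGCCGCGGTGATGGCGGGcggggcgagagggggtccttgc
The last, upstream of Hadhb (chr5:30155003-30155252, plus strand), holds no half-site. Hadhb and Hadha, the 2 subunits of the trifunctional protein, start 272 bases apart on opposite strands, and the capitals mark the 228 bases that the upstream windows of both genes share. Windows were found for 27 of the 36 measured members, and 7 of the 27 (25.9%) held the half-site on either strand, against 4260 of 27025 genes with a window (15.8%). The other 3 were Acadvl, Cd36 and Cpt1a, whose PlGF arrays overlapped the controls. With or without a half-site, 22 of the 36 measured members had both PlGF arrays below every control array (19.5% of all genes). Whether the half-site goes with a lower reading was not tested. A match is a stretch of letters and not a measured binding site.

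PlGF hearts were compared with control hearts to ask which of these genes differ after 6 weeks of PlGF expression. Most members read below the control mean in both PlGF arrays, and most lay farther from it in PlGF replicate 1. Acsl5, the only measured gene of activation, read above it in both. The fold change was negative for 31 of the 36 members, and for 11695 of all 19933 genes. The members' median was −0.32 on the log2 scale, where the median of all genes was −0.03. No member passed the test, which was limma over all genes with Benjamini-Hochberg adjustment at 0.05: 0 were lower, where 0.748% of all genes were, and 0 were higher, where 1.79% of all genes were. The smallest adjusted p of a member was 0.0782. At p under 0.05 before adjustment, 18 members were lower (11.7% of all genes) and 2 were higher (10.9% of all genes). Both PlGF arrays lay below every control array for 22 members (19.5% of all genes) and above every control array for Acsl5 alone (14.3% of all genes). These results turned on the 2 PlGF hearts, which differed from each other. Without PlGF replicate 2, 27 members passed as lower (15.6% of all genes) and 2 as higher (14.1% of all genes), and the members' median was −0.57. Without PlGF replicate 1, 0 members passed as lower (0.356% of all genes), Acsl5 alone passed as higher (1.48% of all genes), and the median was −0.09. In both cases the group was left with 1 array, which was assumed to vary as the arrays of the other groups do.

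**Figure D1:**
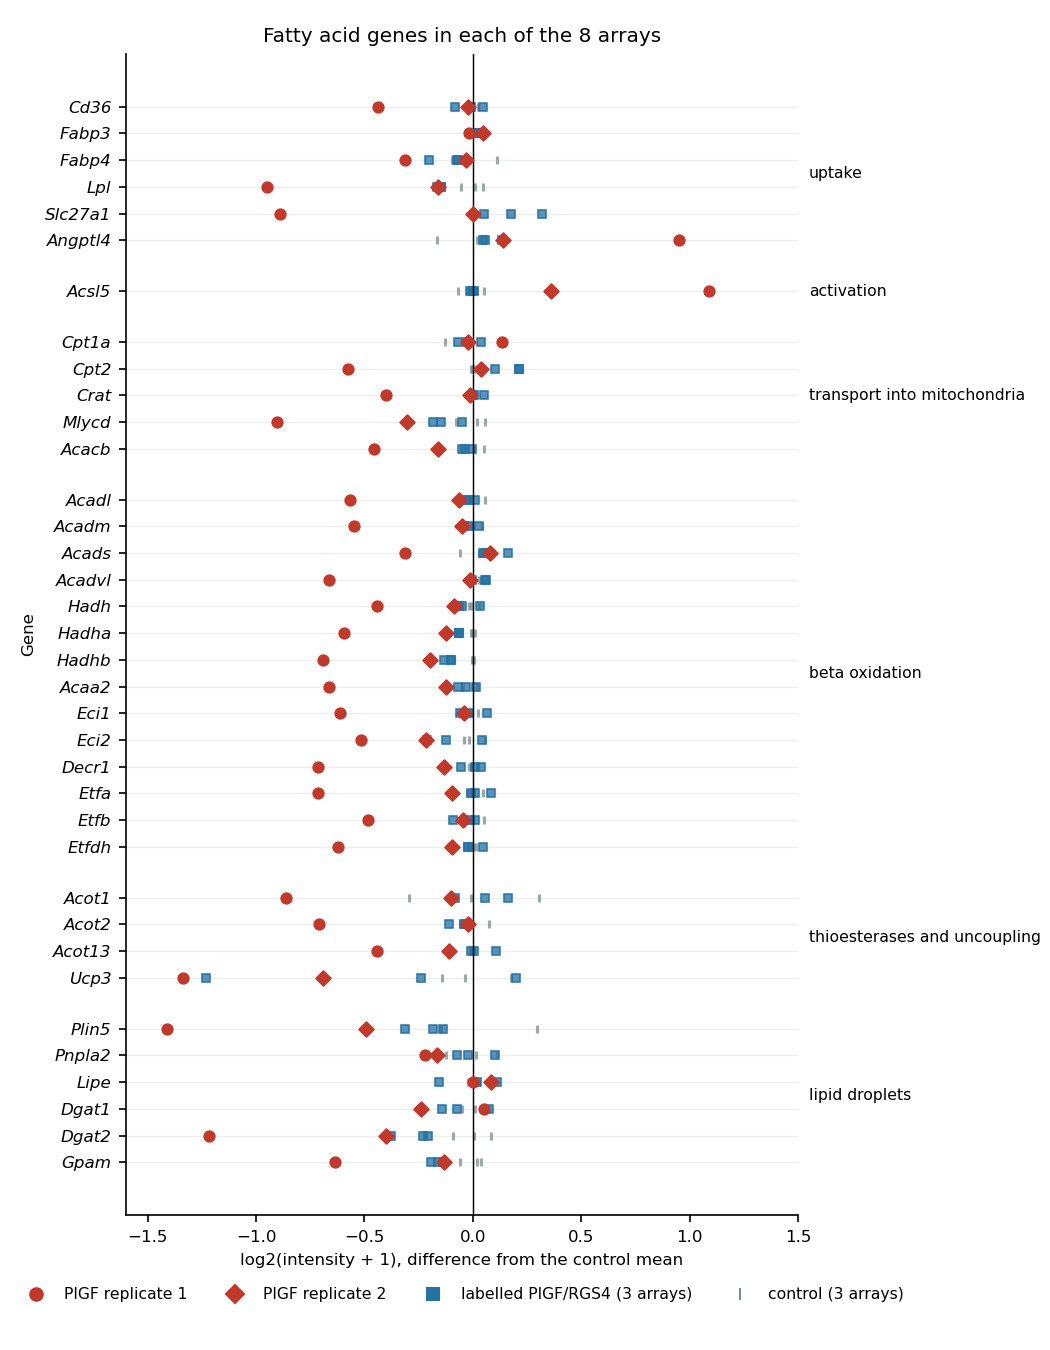
The log2(intensity + 1) of each of the 36 measured genes is plotted as its difference from the mean of the 3 control arrays, with 1 symbol per array and the genes grouped by role. The circles of PlGF replicate 1 sit left of zero for 31 genes and mostly far from the other arrays, the diamonds of PlGF replicate 2 sit closer to zero, and Acsl5 and Angptl4 lie on the other side.

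At the capillary wall, Lpl, which encodes lipoprotein lipase, read 5789 and 9998 intensity units in PlGF hearts, 10081, 9976 and 10082 in those labelled PlGF/RGS4 and 10758, 11544 and 11237 in control. The PlGF hearts had 51.8% and 89.4% of the control mean, both below the controls, but PlGF replicate 2 lay among the arrays labelled PlGF/RGS4, which were below control as well. The fold change was −0.55 ± 0.19 (SE, adjusted p = 0.152). Angptl4, whose protein inhibits lipoprotein lipase, read 205 and 116 intensity units in PlGF hearts, 116, 109.7 and 109 in those labelled PlGF/RGS4 and 107, 117 and 93.9 in control, so the 2 genes lay on opposite sides of control. Only PlGF replicate 1 stood out, at 193% of the control mean, the other PlGF heart lying just under the highest control, and the fold change was 0.54 ± 0.21 (SE, adjusted p = 0.185). Its level was close to the median intensity of the arrays, 111 to 115 units, and no detection calls were used here.

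Of the membrane and cytosolic carriers, Cd36, the main fatty acid translocase of the cardiomyocyte membrane, read 6736 and 8959.6 intensity units in PlGF hearts, 8602, 9399.8 and 9054 in those labelled PlGF/RGS4 and 8959.6, 9257 and 9115 in control. Only PlGF replicate 1 was low, PlGF replicate 2 being equal to the lowest control, and the fold change was −0.23 ± 0.11 (SE, adjusted p = 0.268). Slc27a1, a fatty acid transport protein, showed the same split more sharply, with 53.9% and 100.2% of the control mean in the 2 PlGF hearts and a fold change of −0.44 ± 0.23 (SE, adjusted p = 0.286). The fatty acid binding proteins read nearer to control: Fabp4, found in endothelium and fat, had 80.3% and 97.6% of its control mean (−0.17 ± 0.10, adjusted p = 0.339). Fabp3, the binding protein of heart muscle, had 98.7% and 103% (0.01 ± 0.05, adjusted p = 0.887), among the values nearest to control in the whole route. A second probe set of Fabp3 gave 10601 and 11188.5 units in PlGF hearts, 11021.5, 11021.5 and 11178 in those labelled PlGF/RGS4 and 10908, 10707 and 10737 in control, again with the PlGF arrays on both sides of the controls.

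Acsl5, an acyl-CoA synthetase, was the member with the smallest p and, with Angptl4, Cpt1a, Lipe and Fabp3, 1 of the 5 with a positive fold change. It read 549 and 331 intensity units in PlGF hearts, 259, 255 and 256.5 in those labelled PlGF/RGS4 and 261, 245 and 267 in control. Both PlGF hearts lay above the other 6 arrays, at 213% and 128% of the control mean, whereas the 6 others spanned 245 to 267 units. The fold change was 0.72 ± 0.18 (SE, adjusted p = 0.0782). Acsl5 passed the test with either PlGF array left out, at 0.36 (adjusted p = 0.0484) without PlGF replicate 1 and 1.09 (adjusted p = 0.000133) without PlGF replicate 2. These were the only 2 of 21 alternatives in which it passed, and with another array left out its adjusted p reached 0.207 (without control replicate 2). Outside the heart muscle cell Acsl5 is known from liver and intestine, and whether its reading came with other cell types was not tested.

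Entry into mitochondria is held back by malonyl-CoA, and 2 members act on it. Mlycd, which encodes malonyl-CoA decarboxylase, read 353 and 534 intensity units in PlGF hearts, 580.5, 637 and 597 in those labelled PlGF/RGS4 and 626, 669.8 and 687 in control. Acacb, the carboxylase that makes malonyl-CoA at the mitochondrial surface, read 1673 and 2049 intensity units in PlGF hearts, 2216, 2286 and 2231 in those labelled PlGF/RGS4 and 2204, 2299 and 2375 in control. For both genes the 2 PlGF arrays were below all 6 others. Acaca, the second carboxylase that makes malonyl-CoA, is outside the list and was added after its values were seen. Its arrays overlapped between the groups, at 221 and 231 units in PlGF hearts, 237, 251 and 231 in those labelled PlGF/RGS4 and 231, 231 and 231 in control. The overlap rests on tied values. As deposited, 231.4 is the value of every control array, of PlGF replicate 2 and of the lowest array labelled PlGF/RGS4. The fold changes were −0.60 ± 0.15 (SE, adjusted p = 0.0825) for Mlycd and −0.31 ± 0.09 (SE, adjusted p = 0.0989) for Acacb.

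Of the carnitine enzymes, Crat, which makes acetylcarnitine, read 4696 and 6153 intensity units in PlGF hearts, 6429.5, 6217 and 6221 in those labelled PlGF/RGS4 and 6252, 6192 and 6179.5 in control. PlGF replicate 2 was under the lowest control by a small margin, at 99.1% of the control mean, and the fold change was −0.21 ± 0.10 (SE, adjusted p = 0.276). Cpt2, the inner membrane carnitine palmitoyltransferase, had 67.1% and 103% of the control mean in the 2 PlGF hearts (−0.27 ± 0.15, adjusted p = 0.336). Cpt1a, the outer membrane enzyme that malonyl-CoA inhibits and the form that predominates in liver, had 109.5% and 98.2% (0.06 ± 0.09, adjusted p = 0.737). Its arrays overlapped in all 3 groups.

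All 14 genes of mitochondrial beta oxidation had a negative fold change, as did 11695 of all 19933 genes. The 14 ran from −0.44 to −0.12 with a median of −0.35. In PlGF replicate 1 all 14 were below every control array (43.5% of all genes), with a median difference from the control mean of −0.60, and in PlGF replicate 2 this held for 12 of the 14 (29.0% of all genes), with a median of −0.09. For all but Acads both PlGF hearts were below the control mean, at different distances. Hadhb, the subunit of the trifunctional protein with thiolase activity, had the largest fold change of this role. In single hearts others were farther from control, Decr1 and Etfa in PlGF replicate 1 and Eci2 in PlGF replicate 2. Hadhb read 4818 and 6787 intensity units in PlGF hearts, 7247, 7103.5 and 7247 in those labelled PlGF/RGS4 and 7761, 7804 and 7778.5 in control. Hadha, the subunit with hydratase and dehydrogenase activity whose start lies next to that of Hadhb, read 5129 and 7097 intensity units in PlGF hearts, 7403, 7403 and 7403 in those labelled PlGF/RGS4 and 7692, 7729 and 7800.4 in control. Both genes had their 2 PlGF arrays below all others, and the arrays labelled PlGF/RGS4 below the controls, with fold changes of −0.44 ± 0.12 (SE, adjusted p = 0.1003) for Hadhb and −0.36 ± 0.12 (SE, adjusted p = 0.138) for Hadha. The 3 equal values of Hadha are as deposited and leave that group with an SD of 0. Hadhb has a second probe set, which read 4603 and 6581.5 units in PlGF hearts, 7001, 6820.1 and 7008 in those labelled PlGF/RGS4 and 7482, 7458 and 7538 in control, the same order of groups.

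The auxiliary enzymes, which handle double bonds of unsaturated fatty acids, followed. Eci2, an enoyl-CoA isomerase, read 1009.6 and 1246 intensity units in PlGF hearts, 1247.5, 1486 and 1324 in those labelled PlGF/RGS4 and 1429, 1503.5 and 1405 in control, with both PlGF arrays lowest and a fold change of −0.37 ± 0.11 (SE, adjusted p = 0.106). The second isomerase, Eci1, had 65.3% and 97.2% of the control mean in the 2 PlGF hearts (−0.33 ± 0.15, adjusted p = 0.236). The dienoyl-CoA reductase Decr1 had 60.9% and 91.3% (−0.42 ± 0.15, adjusted p = 0.150). PlGF replicate 1 alone was thus far from control for Eci1 and Decr1, although the second PlGF heart was below every control for both.

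The acyl-CoA dehydrogenases, which start each round of oxidation for chains of different length, were low in PlGF replicate 1 and near control in PlGF replicate 2. Acadvl, for very long chains, had 63.2% and 99.1% of the control mean (−0.34 ± 0.16, adjusted p = 0.262), and Acadl, for long chains, 67.5% and 95.5% (−0.32 ± 0.13, adjusted p = 0.202). Acadm, for medium chains, had 68.3% and 96.5% (−0.30 ± 0.13, adjusted p = 0.219), and Acads, for short chains, 80.4% and 106% (−0.12 ± 0.11, adjusted p = 0.554). Acads and Acadvl were the members of this role whose PlGF arrays overlapped the controls. Downstream of them, Hadh, the hydroxyacyl-CoA dehydrogenase, had 73.7% and 94.2% (−0.26 ± 0.10, adjusted p = 0.172) and the thiolase Acaa2 63.0% and 91.8% (−0.39 ± 0.14, adjusted p = 0.152). The electron transfer flavoproteins, which pass the electrons on, had 61.0% and 93.5% for Etfa (−0.40 ± 0.16, adjusted p = 0.182), 71.6% and 96.8% for Etfb (−0.26 ± 0.12, adjusted p = 0.233) and 64.9% and 93.5% for the dehydrogenase Etfdh (−0.36 ± 0.13, adjusted p = 0.170).

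Ucp3, an uncoupling protein of the inner mitochondrial membrane of muscle that responds to fatty acid supply, had the largest fold change of all members, −1.01 ± 0.39 (SE, adjusted p = 0.182). It read 236 and 369 intensity units in PlGF hearts, 685, 253.5 and 506 in those labelled PlGF/RGS4 and 542, 583 and 675 in control. Both PlGF hearts were below the controls, but the arrays labelled PlGF/RGS4 spanned more than the gap, one of them lying below PlGF replicate 2, and Ucp3 did not pass the test in any of the 21 alternatives run. Among the thioesterases, which release free fatty acid from acyl-CoA, Acot13 read 2681 and 3379 intensity units in PlGF hearts, 3657, 3926 and 3629 in those labelled PlGF/RGS4 and 3648, 3624 and 3665 in control, with the PlGF arrays lowest and a fold change of −0.28 ± 0.09 (SE, adjusted p = 0.147). The mitochondrial Acot2 read 2717 and 4364 intensity units in PlGF hearts, 4349, 4118 and 4318 in those labelled PlGF/RGS4 and 4258, 4399 and 4667 in control, low in PlGF replicate 1 only (−0.37 ± 0.17, adjusted p = 0.255). Acot1, its cytosolic relative, had 53.9% and 91.8% of the control mean (−0.48 ± 0.24, adjusted p = 0.279) at 76.8 to 173.5 units, about the median intensity of the arrays, and the 2 genes are close paralogs whose signals may not be separate.

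Dgat2 and Plin5, both of triglyceride storage, were with Ucp3 the 3 members farthest from the control mean in each of the PlGF hearts. Dgat2, one of the 2 enzymes of the last step of triglyceride synthesis, read 2271 and 4000.4 intensity units in PlGF hearts, 4502.5, 4063 and 4564 in those labelled PlGF/RGS4 and 5590.5, 4956 and 5298 in control. Plin5, the droplet coat protein of tissues that oxidise fat, read 324 and 612 intensity units in PlGF hearts, 783, 759 and 694 in those labelled PlGF/RGS4 and 779, 778 and 1057 in control. For both genes the PlGF arrays were below all 6 others, at 43.0% and 75.7% of the control mean for Dgat2 and 37.2% and 70.2% for Plin5. The fold changes were −0.81 ± 0.21 (SE, adjusted p = 0.0827) for Dgat2 and −0.95 ± 0.26 (SE, adjusted p = 0.0913) for Plin5. Gpam, the mitochondrial acyltransferase that starts glycerolipid synthesis, read 1437 and 2035 intensity units in PlGF hearts, 2033.5, 1952 and 1995 in those labelled PlGF/RGS4 and 2295, 2265 and 2144 in control, with a fold change of −0.39 ± 0.13 (SE, adjusted p = 0.141). Its PlGF arrays were below the controls, and PlGF replicate 2 lay just above the highest array labelled PlGF/RGS4.

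Of the remaining droplet genes, Pnpla2, the lipase that starts triglyceride breakdown, had 85.7% and 88.8% of the control mean in the 2 PlGF hearts (−0.19 ± 0.08, adjusted p = 0.223), with both PlGF arrays below the other 6. Lipe and Dgat1 overlapped between PlGF and control. Hormone-sensitive lipase, Lipe, had 100.2% and 106% (0.04 ± 0.08, adjusted p = 0.781). Dgat1, the other enzyme of the last step of synthesis, had 104% and 84.7% (−0.09 ± 0.10, adjusted p = 0.610), so the 2 Dgat genes had different readings in PlGF replicate 1. The difference between them was not tested.

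**Figure D2:**
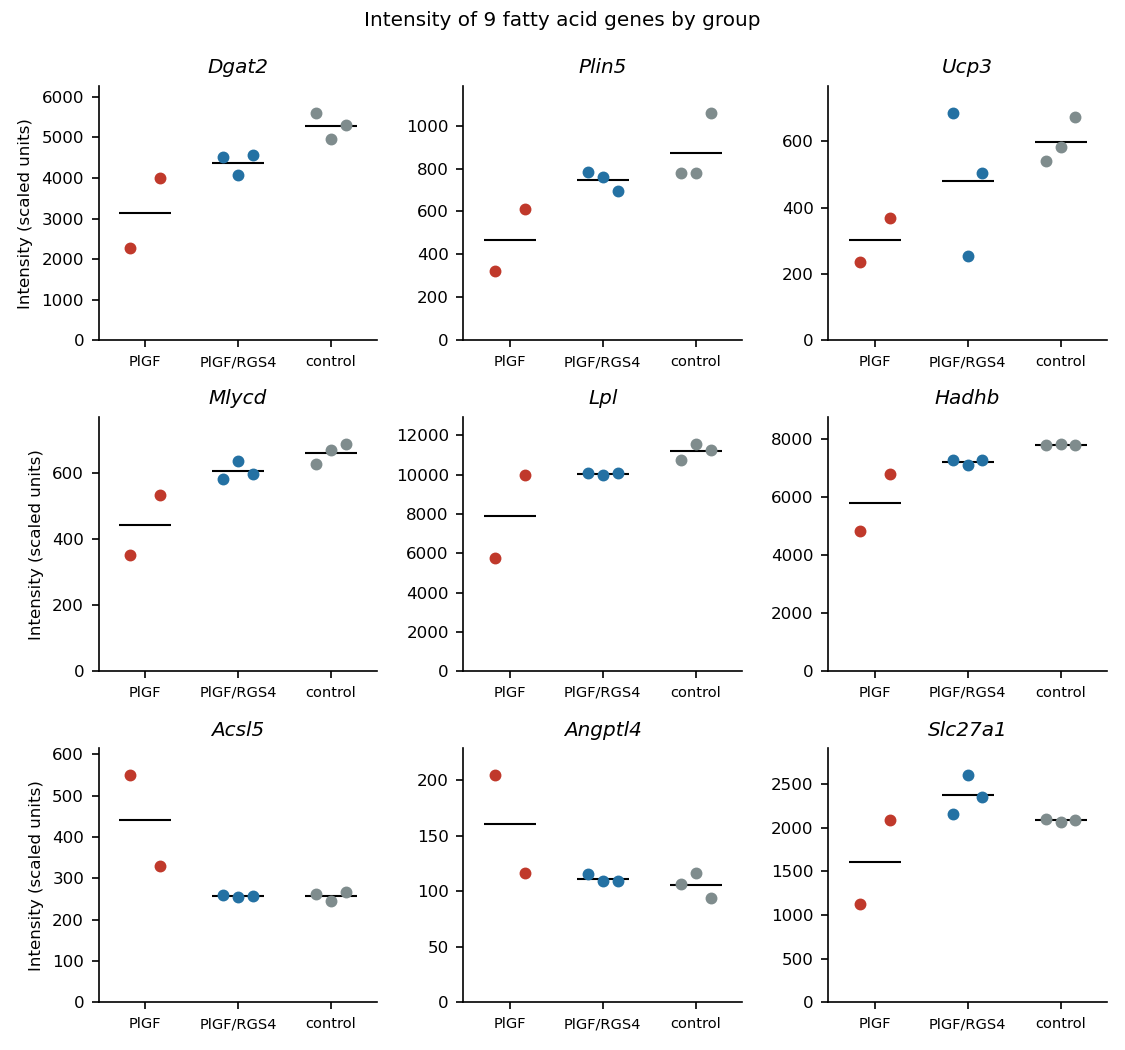
The scaled intensity of 9 of the genes is plotted on a linear axis from 0 for each array, with PlGF, PlGF/RGS4 as labelled and control from left to right, points for single hearts and a bar for the group mean. The 2 PlGF points lie below all control points for Dgat2, Plin5, Ucp3, Mlycd, Lpl and Hadhb and above them for Acsl5, and in Slc27a1 and Angptl4 only 1 of the 2 stands apart.

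The 2 PlGF hearts were set side by side for every member. PlGF replicate 1 read lower than PlGF replicate 2 for 32 of the 36 members (88.9%), where this held for 52.8% of all genes. The members' median difference from the control mean was −0.57 in PlGF replicate 1 and −0.09 in PlGF replicate 2, against −0.03, −0.01 and −0.02 in the arrays labelled PlGF/RGS4. Single PlGF arrays were below every control array for 31 and 23 members, where this held for 43.5% and 29.0% of all genes. In the arrays labelled PlGF/RGS4 the counts were 14, 11 and 12, where this held for 21.2% to 24.6% of all genes. By role, the medians of PlGF replicate 1 and PlGF replicate 2 were −0.38 and −0.01 for uptake and −0.45 and −0.02 for transport into mitochondria. For thioesterases and uncoupling they were −0.79 and −0.11, and for lipid droplets −0.43 and −0.20. The second PlGF heart thus read nearest to control for uptake and transport and farthest for lipid droplets and for the single activation gene. For lipid droplets the arrays labelled PlGF/RGS4 were below control too, with medians of −0.14, −0.05 and −0.16. The PlGF heart with the larger differences was also the one with the higher Pgf and the one read as male. Within the males (1 PlGF array and 1 control array) the members' median difference was −0.59 with 31 of 36 negative. Within the females (1 PlGF array and 2 control arrays) the members' median difference was −0.07 with 29 negative. The medians of all genes were −0.04 within the males and −0.0002 within the females. Sex and the heart cannot be told apart with 1 PlGF array of each. With sex as a term in the fit no member passed, and Dgat2 had a fold change of −0.75 (adjusted p = 0.0584).

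**Figure D3:**
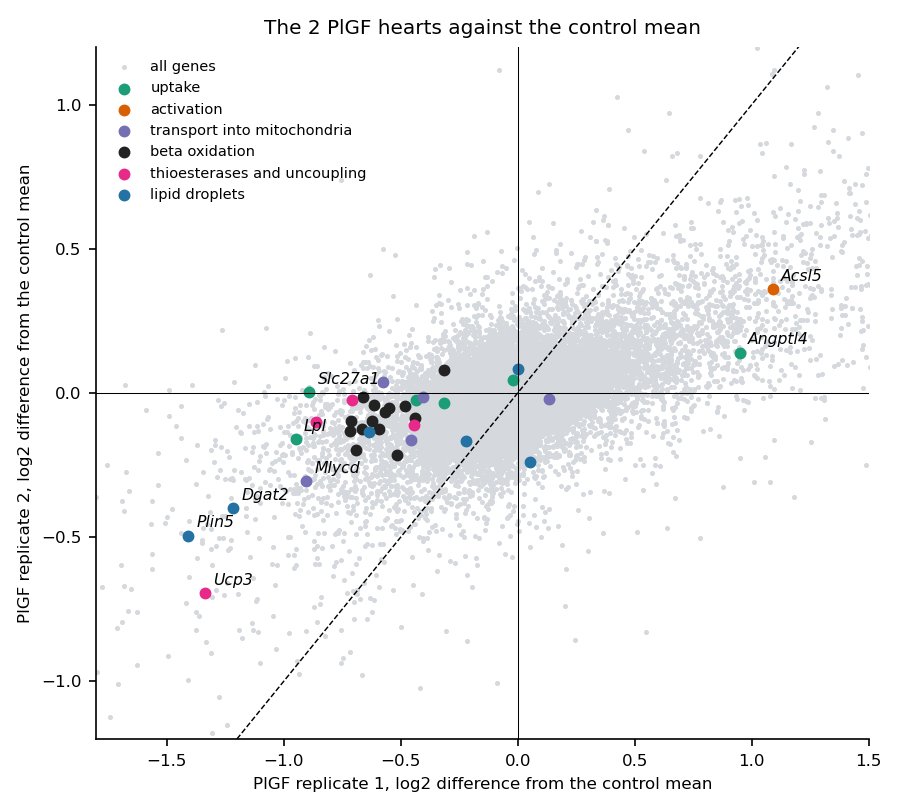
Each gene is a point, with its log2 difference from the control mean in PlGF replicate 1 on the horizontal axis and in PlGF replicate 2 on the vertical axis; grey points are all genes, coloured points the members by role, and the dashed line marks equal differences (genes beyond the axes are not drawn). Most members lie above the line and left of zero, with 27 of 36 below the control mean in both hearts and Acsl5 above it in both.

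Leukocyte markers also differed between the PlGF hearts and control, as did Cdh5 among the endothelial markers. The part of any cell type in these readings was not tested. The 20 leukocyte markers had a median difference from control of 1.97 in PlGF replicate 1 and 0.81 in PlGF replicate 2. Of the 20, 10 passed as higher in PlGF (1.79% of all genes) and 0 as lower (0.748% of all genes). Their summed intensity was 21253 and 10611 in PlGF hearts, 5121 to 6736 in those labelled PlGF/RGS4 and 5679 to 6052 in control. The heart with the lower fatty acid genes was therefore the one with more leukocyte signal. The 14 cardiomyocyte markers had a median of −0.14 and 0.00 in the 2 PlGF hearts. Of the 14, 0 passed in either direction (0.748% of all genes lower, 1.79% higher). They summed to 133949 and 149023 in PlGF hearts, 146196 to 148117 in those labelled PlGF/RGS4 and 149435 to 152408 in control. In PlGF replicate 1 the median of the members was below that of the cardiomyocyte markers, but these markers were spread. They ran from −1.16 to 0.36 there, with 10 of the 14 below every control array (43.5% of all genes) and 2 above. Ryr2 had 44.7% of its control mean in that heart, Tcap 65.1% and Pln 72.0%, whereas Nppa had 128%. In PlGF replicate 2 the cardiomyocyte markers ran from −1.35 to 0.20, and Nppa had 38.9% of its control mean. In the arrays labelled PlGF/RGS4 Nppa averaged 51.1%. Markers of fat, which also expresses many of these genes, were low throughout: 10 adipocyte genes summed to 458 and 495 in PlGF hearts, 507 to 518 in those labelled PlGF/RGS4 and 502 to 527 in control, and Adipoq, the adiponectin gene, read 21.7 to 27.2 units in all 8 arrays. Fibroblast markers had a median of 0.54 in PlGF replicate 1 and 0.05 in PlGF replicate 2, and 0 of 10 passed (0.748% of all genes lower, 1.79% higher). Of 15 endothelial markers Cdh5 alone passed, as higher (1.79% of all genes). Skeletal muscle markers, 10 in number, had a median of −0.21 and −0.04 in the 2 PlGF hearts, and 0 passed (0.748% of all genes lower, 1.79% higher).

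**Figure D4:**
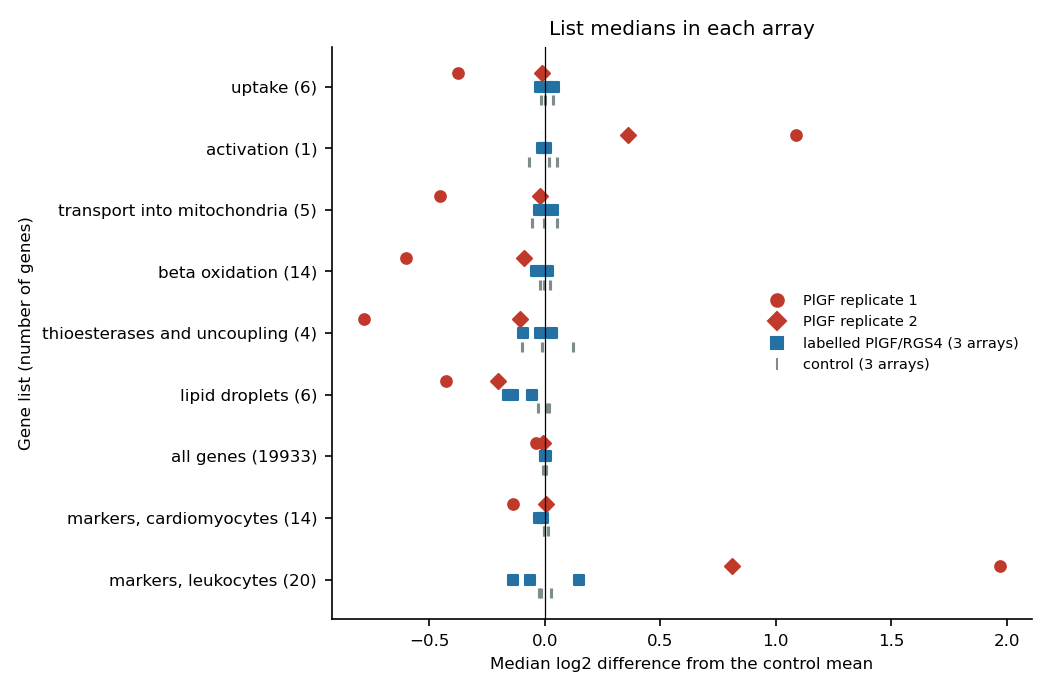
The median log2 difference from the control mean is plotted for each role of the fatty acid genes, for all genes and for 2 marker lists, with 1 symbol per array and the number of genes in parentheses. PlGF replicate 1 lies left of the other arrays in 5 of the 6 roles, all genes sit near zero, and the leukocyte markers reach 1.97 in PlGF replicate 1 and 0.81 in PlGF replicate 2.

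The arrays labelled PlGF/RGS4 were compared with control to ask whether the genes differ where both transgenes are named. Taken over all members they sat close to control. The members' median fold change was −0.02, where that of all genes was 0.00, and 0 members passed in either direction (0% of all genes lower, 0.0151% higher). At an unadjusted p under 0.05, 0 members were lower (2.28% of all genes) and 0 higher (2.74% of all genes). All 3 arrays lay below every control for 5 members (5.85% of all genes), namely Dgat2, Gpam, Hadha, Hadhb and Lpl. They lay above every control for 4 (6.96% of all genes), namely Acads, Cpt2, Fabp3 and Slc27a1. Dgat2 averaged 4376.5 ± 273 in the arrays labelled PlGF/RGS4 and 5281 ± 318 in control (SD, n = 3 each), a fold change of −0.27 ± 0.19 (SE, adjusted p = 0.995). Gpam averaged 1993.5 ± 40.9 in the arrays labelled PlGF/RGS4 and 2235 ± 80.2 in control, a fold change of −0.16 ± 0.12 (SE, adjusted p = 0.995). The fold changes of the other 3 below control were −0.15 for Lpl, −0.11 for Hadhb and −0.06 for Hadha, and of those above control 0.18 for Slc27a1, 0.18 for Cpt2, 0.09 for Acads and 0.03 for Fabp3. In PlGF versus control, which shares the control arrays, the first 5 had −0.81 for Dgat2, −0.39 for Gpam, −0.55 for Lpl, −0.44 for Hadhb and −0.36 for Hadha. In Ucp3 the 3 arrays spread from 253.5 to 685 units, the widest spread of any member in that group relative to its mean of 481 ± 217 (SD, n = 3).

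PlGF hearts and the arrays labelled PlGF/RGS4 were compared directly, which is the test of whether these 2 groups of arrays differ. The members' median was −0.30, where that of all genes was −0.03, and 0 members passed as lower (0.0853% of all genes) or higher (1.10% of all genes). At an unadjusted p under 0.05, 17 were lower (10.6% of all genes) and 1 was higher (8.95% of all genes). Both PlGF arrays lay below all 3 arrays labelled PlGF/RGS4 for 21 members (19.9% of all genes) and above them for Acsl5 and Angptl4 (12.6% of all genes). The fold changes were −0.74 ± 0.26 (SE, adjusted p = 0.190) for Plin5 and −0.54 ± 0.21 (SE, adjusted p = 0.224) for Dgat2. Those of the malonyl-CoA genes were −0.48 ± 0.15 (SE, adjusted p = 0.174) for Mlycd and −0.28 ± 0.09 (SE, adjusted p = 0.163) for Acacb, and Acsl5 had 0.73 ± 0.18 (SE, adjusted p = 0.112). Ucp3 had −0.59 ± 0.39 (SE, adjusted p = 0.420) and Lpl −0.40 ± 0.19 (SE, adjusted p = 0.294), and both overlapped between the groups. The comparison rests on the same 2 PlGF arrays as the one with control. Without PlGF replicate 2, 27 members passed as lower (15.0% of all genes) and 2 as higher (13.0% of all genes), and without PlGF replicate 1, 0 passed as lower (0.0552% of all genes) or higher (1.31% of all genes).

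**Figure D5:**
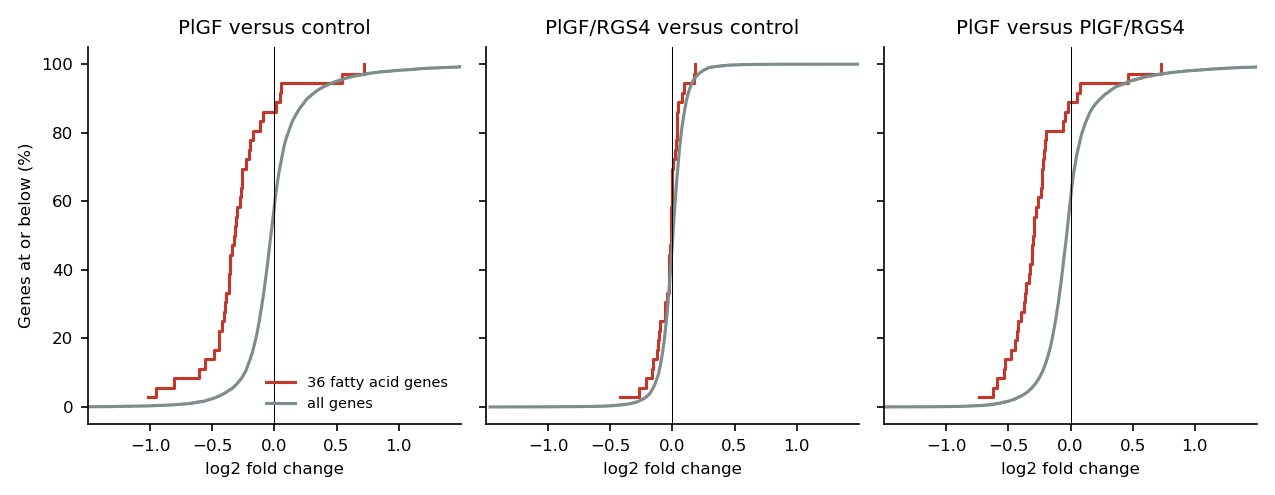
The share of genes at or below each log2 fold change, in percent, is drawn for the 36 members in red and for all genes in grey, with 1 panel for each of the 3 comparisons (all genes beyond 1.5 either way are outside the axes). The red line is shifted to the left in both comparisons of PlGF, with medians of −0.32 and −0.30, and lies close to the grey line for PlGF/RGS4 versus control, with a median of −0.02.

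A further 74 genes of fatty acid handling outside the list were looked up, of which 68 were measured. In PlGF versus control their median was −0.14, 24 were lower (11.7% of all genes) and 2 higher (10.9% of all genes) at an unadjusted p under 0.05, and 34 lay below every control array (19.5% of all genes) and 3 above (14.3% of all genes). A single one passed the test, as lower (0.748% of all genes), and 0 passed as higher (1.79% of all genes). It was Hsd17b4, the multifunctional enzyme of peroxisomal beta oxidation, which read 899.9 and 978 intensity units in PlGF hearts, 994, 1017 and 1019.7 in those labelled PlGF/RGS4 and 1219, 1145.5 and 1168 in control. Hsd17b4 fell by 0.33 on the log2 scale (SE 0.06, limma adjusted p = 0.0377), and the 2 PlGF hearts were both below the other 6. It passed in 9 of 21 alternatives and with only 1 of the 8 arrays left out, PlGF replicate 2, its adjusted p being 0.0902 without PlGF replicate 1 and 0.124 without control replicate 3. Next by p came Plin4, a droplet coat protein, at 572 and 1126 units in PlGF hearts, 1601, 1483.5 and 1369 in those labelled PlGF/RGS4 and 1603, 1728 and 2115.5 in control (−1.17 ± 0.26, adjusted p = 0.0646). Like Plin5, it had its PlGF hearts lowest and the larger difference in replicate 1. Hsd17b10, a mitochondrial dehydrogenase, had −0.34 ± 0.09 (SE, adjusted p = 0.0796), and Vldlr, the receptor that helps lipoprotein lipase deliver fatty acids, −0.84 ± 0.22 (SE, adjusted p = 0.0834). Phyh, the peroxisomal hydroxylase of phytanic acid breakdown, had −0.47 ± 0.12 (SE, adjusted p = 0.0856) and Acad11, an acyl-CoA dehydrogenase, −0.56 ± 0.15 (SE, adjusted p = 0.0856). By role, an unadjusted p under 0.05 with a lower value was found for 7 of 10 further genes of beta oxidation, 4 of 10 of peroxisomal oxidation and 8 of 21 of droplets, where 11.7% of all genes had one. In PlGF/RGS4 versus control 0 of the 68 passed, 5 were lower (2.28% of all genes) and 1 higher (2.74% of all genes) at an unadjusted p under 0.05, and their median was −0.03.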

How the data were processed

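Left ventricular RNA of 8 mice was hybridised to 1 array each. The deposited values are linear intensities, 1 per probe set and array, for which the authors' methods name MAS5 and global scaling. The array medians lie between 111 and 115. All 8 columns were used and 0 columns of other samples were present. GEO's platform table names genes for 23398 of 28440 probe sets. Probe sets with several symbols (1618) or without a name (5042) were not used, which left 21780, and the brightest probe set of a gene was taken. Symbols were checked by Entrez number against RefSeq genes of GRCm38.p6, from which the upstream sequences also come.

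Intensities were tested as log2(intensity + 1) in limma 3.58.1 under R 4.3.3. One model of 3 group means over the 8 arrays (lmFit, eBayes; prior degrees of freedom 2.41, prior SD 0.0813) gave all contrasts, with Benjamini-Hochberg adjustment over 19933 genes. Adjusted p-values of single genes and all SEs are from that model. Tables and plots were made in Python 3.11.15. The model was tested before use on simulated data with known changes. All simulated arrays varied alike, so the test did not cover 2 PlGF hearts that differ as these do. Per the labels the replicates are biological, and the small number of arrays limits the precision.

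The members and all lists were chosen with earlier results of these data known. Values in every array are given for the 3 members of each role with the smallest unadjusted p in PlGF versus control, and of the other fatty acid genes for those past the test; up to 6 of these are named. Alternatives were quantile normalization, median centring, only genes above the median level, all or averaged probe sets, another prior, array weights, only the 2 groups compared, the methods' t-test, a larger pseudocount of 16, a fit with the ANOVA spread alone, the replicate block, sex as a term, and omission of single arrays.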

Additional observations from a re-analysis of the deposited data

How the results depend on the processing

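In PlGF versus control, 0 members passed as lower in every alternative except without PlGF replicate 2 (27). When single arrays were left out, the counts ran from 0 to 27 for lower and 0 to 2 for higher (1 where PlGF replicate 1 was missing, 2 where it was PlGF replicate 2), and the members' median from −0.57 to −0.091, both ends set by the PlGF arrays. In PlGF versus PlGF/RGS4 the counts ran from 0 to 27 and from 0 to 2, both highest without PlGF replicate 2. In PlGF/RGS4 versus control the median ran from −0.027 (without control replicate 1) to −0.0076, with 0 members past the test. The other alternatives moved the median of PlGF versus control between −0.37 (arrays centred on their median) and −0.28 (quantile normalization).

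A sign change occurred 11 times among single values, never with a value past the test. With arrays centred on their median Fabp3 read −0.039 and Lipe −0.0094, and without control replicate 1 Cpt1a read −0.0074. The rest turned on the PlGF arrays. Without PlGF replicate 1 and without PlGF replicate 2, the fold change against control was 0.045 and −0.018 for Fabp3, 0.0030 and −0.89 for Slc27a1, −0.022 and 0.14 for Cpt1a, 0.037 and −0.58 for Cpt2, 0.080 and −0.31 for Acads, and −0.24 and 0.053 for Dgat1. In the same order, that against PlGF/RGS4 was 0.035 and −0.65 for Acot2, and 0.030 and −0.47 for Gpam. Of the members not given above by fold change, 27 in PlGF/RGS4 versus control changed sign in 38 of 565 fits and passed in 0, and 20 in PlGF versus PlGF/RGS4 changed sign in 7 of 419 and passed in 14, all without PlGF replicate 2. The cause of these changes was not tested. Angptl4 and Acot1 have no value among genes above the median level.

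Whether the replicate numbers pair the arrays could not be settled. Deviations from the group mean correlated at 0.076, 0.30 and 0.10 for same-numbered control and PlGF/RGS4 arrays. The 0.30 belongs to 2 arrays read as male, and control replicate 3 correlated best with PlGF/RGS4 replicate 1. Same-numbered control and PlGF arrays had −0.15 and −0.14. With 2 PlGF arrays the deviations mirror each other, so a control's correlations with them are equal and opposite by construction. With the replicate number as a block, 0 members passed in any comparison, and the median of PlGF versus control was −0.32. With 2 PlGF hearts that differ this much, a member's difference from control is poorly fixed.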

Other observations

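Some intensities repeat exactly between arrays. Among 3302 probe sets with a mean above 1000 units, 835 had at least 1 value that occurred on more than 1 array. Of the members this concerned Cd36, Fabp3, Hadha, Hadhb and Eci1, and Hadha had 1 value in all 3 arrays labelled PlGF/RGS4. How the repeats arose was not tested.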
